A study of Homo sapiens with 4 samples.

Results

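Ribosome profiling libraries of Hermes 4B melanocytes were set against each other by batch. The experiment had 2 batches, and each batch held a library from cells given a control siRNA and a library from cells given an siRNA against CDH3-AS1. All 4 libraries of the series entered the comparison, as batch 2 against batch 1 with the siRNA as a covariate. Of 10469 genes tested, 1657 (15.8%) passed the threshold, an adjusted p under 0.05 in edgeR's quasi-likelihood test with Benjamini-Hochberg adjustment. The results below are on 1643 of these, which moved in the same direction within the control siRNA and within the CDH3-AS1 siRNA. Set apart from them were genes far higher in the control siRNA library of batch 1 than in every other library, as given below.

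Hermes 4B is an immortalised line of human skin melanocytes, labelled as wild type, and so all values come from 1 cell line. The medium of all 4 libraries held the phorbol ester TPA, endothelin-1, cholera toxin, human stem cell factor and fetal bovine serum. CDH3-AS1 is a noncoding antisense RNA at CDH3, which encodes P-cadherin, and the series asks how its loss changes expression of CDH3. The labels record the batch only as a number. They do not say whether cells, lysates, gels or sequencing runs differed between batches, nor do they name a culture for each library. The p-values below therefore speak only of the spread among these 4 samples, which may be technical.

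In ribosome profiling, cells are lysed with a drug that holds ribosomes on the messenger RNA, the RNA outside the ribosomes is digested, and the protected fragments are sequenced. The number of fragments in a coding sequence follows both the amount of the messenger RNA and how many ribosomes each copy carries. No RNA-seq was analysed here, so more RNA and more ribosomes per RNA cannot be told apart for any gene below, and in the same way fewer cells of a type and less RNA per cell cannot be told apart. Mitochondria hold ribosomes of their own, which translate the messages of the mitochondrial genome and to which cycloheximide, the drug used here, does not bind.

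Levels are given as CPM, a gene's coding-sequence reads divided by all coding-sequence reads of its library, on the usual CPM scale, always with the control siRNA before the CDH3-AS1 siRNA. Changes are log2 differences, batch 2 minus batch 1, with their standard error (SE). Library totals were 2034854 and 6759850 reads in batch 1 and 5994485 and 2858835 reads in batch 2, so depth did not follow the batch. A gene with 3 reads stood at 1.63 and 0.473 CPM in batch 1 and at 0.533 and 1.15 CPM in batch 2. The share of reads in 3′ UTRs was 3.48% and 2.28% in batch 1 and 1.03% and 1.62% in batch 2, with no overlap between batches. For 5′ UTRs the shares overlapped, at 5.98% and 3.81% in batch 1 and 5.08% and 7.09% in batch 2. The 95% Clopper-Pearson intervals of the 3′ UTR shares, which cover counting error only, ran from 3.45 to 3.50% and from 2.26 to 2.29% in batch 1 and from 1.03 to 1.04% and from 1.61 to 1.64% in batch 2.

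Some reads in batch 1 belonged to genes of other tissues. In the control siRNA library of batch 1, 126 genes had at least 10 reads and a CPM at least 5 times that of every other library, and these were set apart. Of them, 43 belonged to the list of 76 skeletal muscle genes. Summed over the 126 genes, the level was 7742 CPM in that library and at most 91.2 CPM in any other. The 5 highest muscle genes were TTN, which encodes the sarcomere protein titin, ACTA1, the skeletal actin, the myosin heavy chain MYH7, the calcium release channel RYR1 and the creatine kinase CKM, with 3285, 1858, 647, 468 and 436 reads. CKM had no read in the other 3 libraries, and 34 was the highest count of ACTA1 in any of them. Among the other 83 genes were COL1A1, a collagen of fibroblasts and bone, with 699 reads, and digestive enzymes of the pancreas such as CPA1 with 44 reads and PRSS1 with 31 reads. The rule rests on levels alone, so it does not show that each of the 83 came from another tissue. Only 10 of the 126 genes were tested and 9 of those were called.

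Both libraries of batch 1 also held messages of lung epithelium, which no library of batch 2 held above 4 reads. SFTPC, a surfactant protein of alveolar cells, had 126 and 170 reads in batch 1 and 4 and 0 reads in batch 2. SFTPB, another surfactant protein, had 31 and 34 reads against 0 and 0, and the phosphate transporter SLC34A2 had 19 and 30 reads against 0 and 0. Of 16 surfactant and lung epithelium genes, a list chosen after the values were seen, 11 were in the files, and their summed level was 107 and 41.4 CPM in batch 1 and 0.888 and 0 CPM in batch 2. Only 3 of the list, SFTPC, SFTPB and SLC34A2, were tested, and all 3 were called lower. They passed the filter on low counts through batch 1 alone, so these calls were largely fixed in advance. Since they were read in both siRNAs they passed the direction rule. NKX2-1, which defines lung epithelium, had 7 and 2 reads in batch 1 and none in batch 2. Immune and secretory genes followed the same order in part, with CD74, a chaperone of MHC class II, at 11 and 16 reads in batch 1 and none in batch 2, and lysozyme (LYZ) at 18 and 14 reads in batch 1 and none in batch 2. Over the whole list of 16 blood and immune markers the summed level was 870 and 1245 CPM in batch 1 against 789 and 651 CPM in batch 2, and over the 10 endothelial markers it was 11.9 and 2.99 CPM in batch 1 and 2.49 and 1.92 CPM in batch 2. What part such reads have in the results below was not tested. Leaving the genes set apart out before scaling kept 1640 of the 1643 calls. Those genes were already outside the 1643, so this bears only on scaling and spread.

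**Figure D1:**
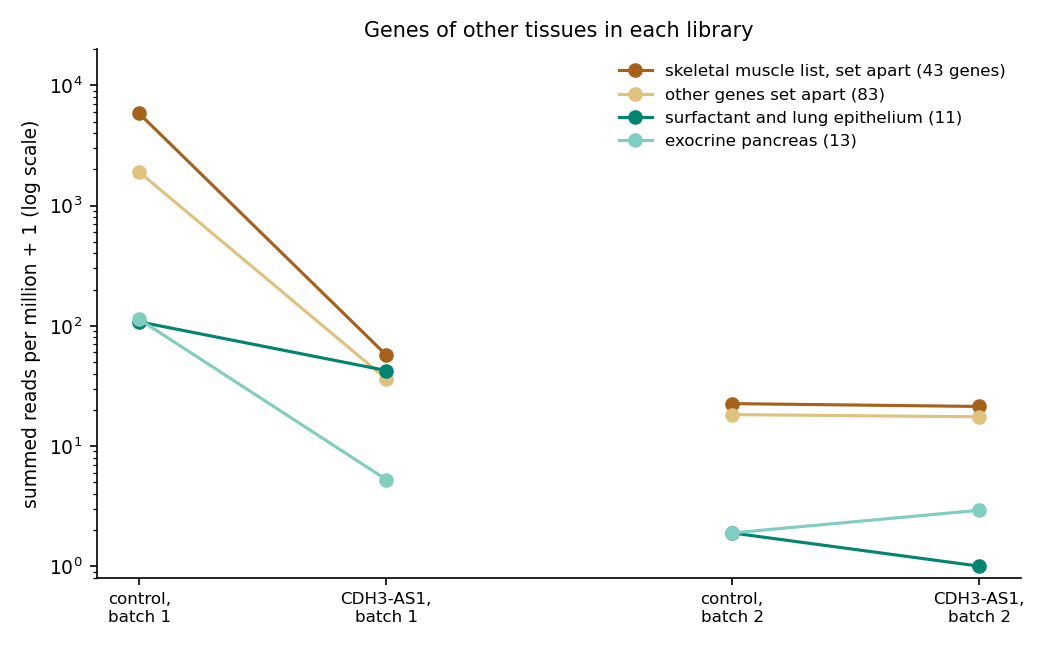
Summed CPM plus 1 (log axis) in each of the 4 libraries for the muscle genes set apart, the other genes set apart, and the lung and pancreas lists. Each point is the sum over the genes of a group in 1 library. The muscle genes set apart sit at 5841 CPM in the control library of batch 1 and at most at 56.1 CPM elsewhere, while the surfactant and lung genes are at 107 and 41.4 CPM in batch 1 and at or near 0 in batch 2.

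Melanocyte genes were high in every library. The 30 pigmentation genes summed to 27851 and 25233 CPM in batch 1 against 47562 and 37475 CPM in batch 2. The keratinocyte list (24 genes, 13 of them in the files) summed to 329 and 353 CPM in batch 1 and 261 and 249 CPM in batch 2. For the fibroblast list of 16 genes the sums were 682 and 190 CPM in batch 1 and 437 and 372 CPM in batch 2, and COL1A1 was at 0 in both libraries of batch 2.

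Of the 1643 genes kept, 996 (9.51% of all tested) were higher in batch 2 and 647 (6.18%) were lower. Within each siRNA the difference was at least 0.5 on the log2 scale for 1435 of them, 879 higher and 556 lower. Over all 10469 genes, 70.2% had the same sign within both siRNAs, and the 2 differences, which share no library, correlated across genes with a Pearson r of 0.58 and a Spearman rho of 0.56. Genes are not independent replicates, so this is a description only. The median difference over all genes was 0.01. The 2 libraries of a batch lay both above those of the other for 2852 genes (27.2%) and both below for 2829 genes (27%), the background against which single genes without overlap are to be read.

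**Figure D2:**
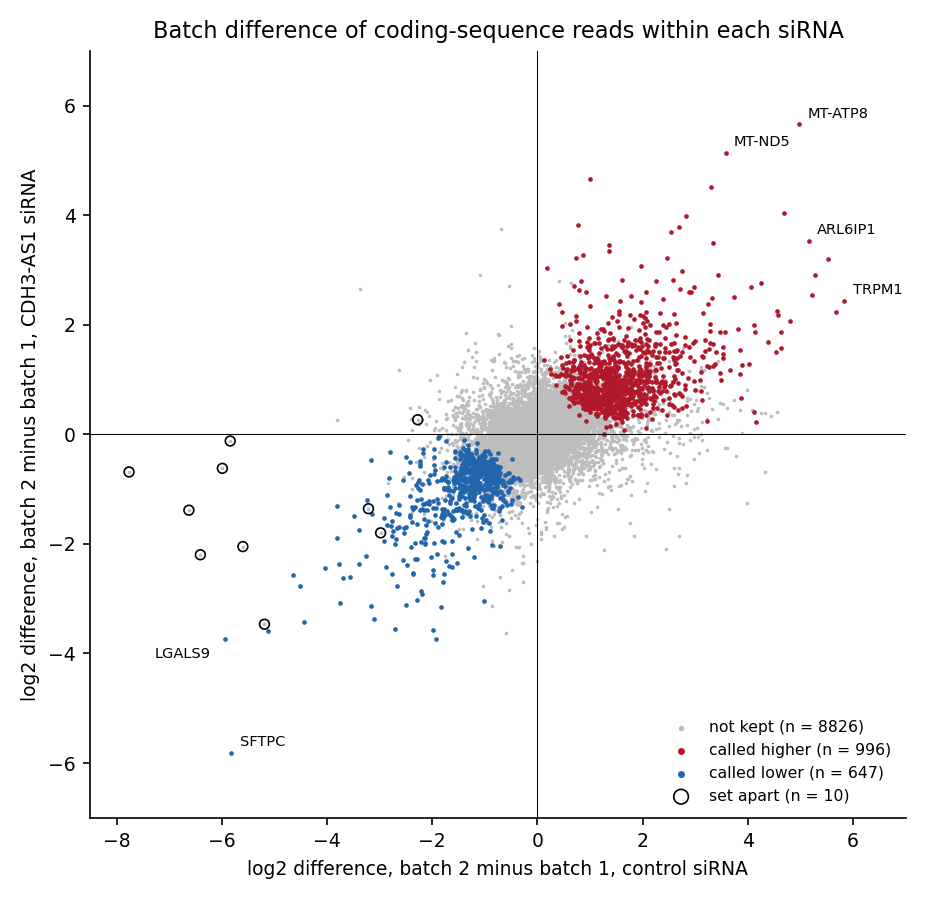
Log2 difference of batch 2 minus batch 1 within the control siRNA (horizontal axis) and within the CDH3-AS1 siRNA (vertical axis) for 10469 genes; each point is a gene, 1 library against 1 on each axis. The 996 genes called higher (red) and the 647 called lower (blue) lie in the quadrants where both siRNAs move the same way, and the 10 tested genes that were set apart (open circles) each differ more within the control siRNA than within the CDH3-AS1 siRNA.

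The test had 1 residual degree of freedom per gene and drew its spread mainly from all genes. With the siRNA ignored, 2 libraries against 2 cannot give an exact two-sided permutation p below 0.333 for a single gene. Exchanging libraries only within an siRNA raises that floor. With a library left out, the spread came only from the 2 libraries of the batch kept whole, which differ in siRNA. A call lost in such a fit, here or below, can therefore rest on that pair as well as on the library left out. The number of calls changed with the libraries used. It was 287, 1280, 29 and 120 when the control and the CDH3-AS1 library of batch 1 and then the control and the CDH3-AS1 library of batch 2 were left out, in fits that also drop the siRNA term, against 538 in a fit of all 4 libraries without that term. All 29 and all 120 of the last pair were among the 1643. Of the 1643 genes, 1630 of the 1631 still tested without the CDH3-AS1 library of batch 1 kept their direction, as did 1639 of 1643 without the control library of that batch. The 1643 were chosen by their direction in these same libraries, so this outcome was largely fixed in advance. It is no support for the calls.

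Genes that the mitochondrial genome encodes were far higher in batch 2. All 13 were higher in batch 2 within both siRNAs, against 3775 of 10469 over all genes. Of the 13, 12 were called, against 9.51% of all genes, with a median difference of 2.84. Their share of coding-sequence reads was 0.321% and 0.209% in batch 1 and 2.11% and 2.27% in batch 2. MT-ND5, a subunit of complex I, was at 893 and 380.1 CPM in batch 1 against 10564 and 13102 CPM in batch 2. Both libraries of batch 2 stood far above both of batch 1, and the log2 difference was 4.36, SE 0.21, adjusted p = 2.28e-90. MT-ATP8, a small subunit of ATP synthase, was at 28.2 and 10.9 CPM in batch 1 against 893 and 562 CPM in batch 2, a difference of 5.33, SE 0.29, adjusted p = 1.06e-69. Its neighbour on the same message, MT-ATP6, was at 33.1 and 43.9 CPM in batch 1 against 859.8 and 716 CPM in batch 2, a difference of 4.34, SE 0.27, adjusted p = 3.63e-53. Both reading frames of that message thus had over 10 times the level in batch 2.

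The rise was uneven among these 13 genes. The cytochrome oxidase subunits MT-CO1, MT-CO2 and MT-CO3 differed by 2.74, 3.24 and 2.84, and cytochrome b, MT-CYB, by 2.52. Complex I subunits ran from 4.36 for MT-ND5 through 3.94 for MT-ND3, 1.55 for MT-ND4 and 0.98 for MT-ND2 down to MT-ND1. That gene was at 407 and 309.7 CPM in batch 1 against 448 and 509.6 CPM in batch 2 and was not called (0.46, SE 0.23, adjusted p = 0.178). With each library left out in turn, 9 to 12 of the 12 calls remained. Mitochondrial genes have copies in the nuclear genome, and reads that fit both can have been split.

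Nuclear genes of the same complexes were called about as often as all genes. Of 60 nuclear genes of oxidative phosphorylation, 6 were called higher and 4 lower, which is near the 9.51% and 6.18% of all genes, with a median difference of 0.12. NDUFB3, a complex I subunit, was at 7.60 and 8.98 CPM in batch 1 against 53.1 and 72.8 CPM in batch 2 (2.89, SE 0.36, adjusted p = 2.95e-13) and NDUFS8, another, at 309 and 248 CPM in batch 1 against 109.6 and 127 CPM in batch 2 (-1.20, SE 0.25, adjusted p = 7.40e-05). The first rose and the second fell, each with no overlap between batches. Of 38 mitochondrial ribosomal proteins 4 were called higher and 1 lower, with a median difference of 0.13.

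**Figure D3:**
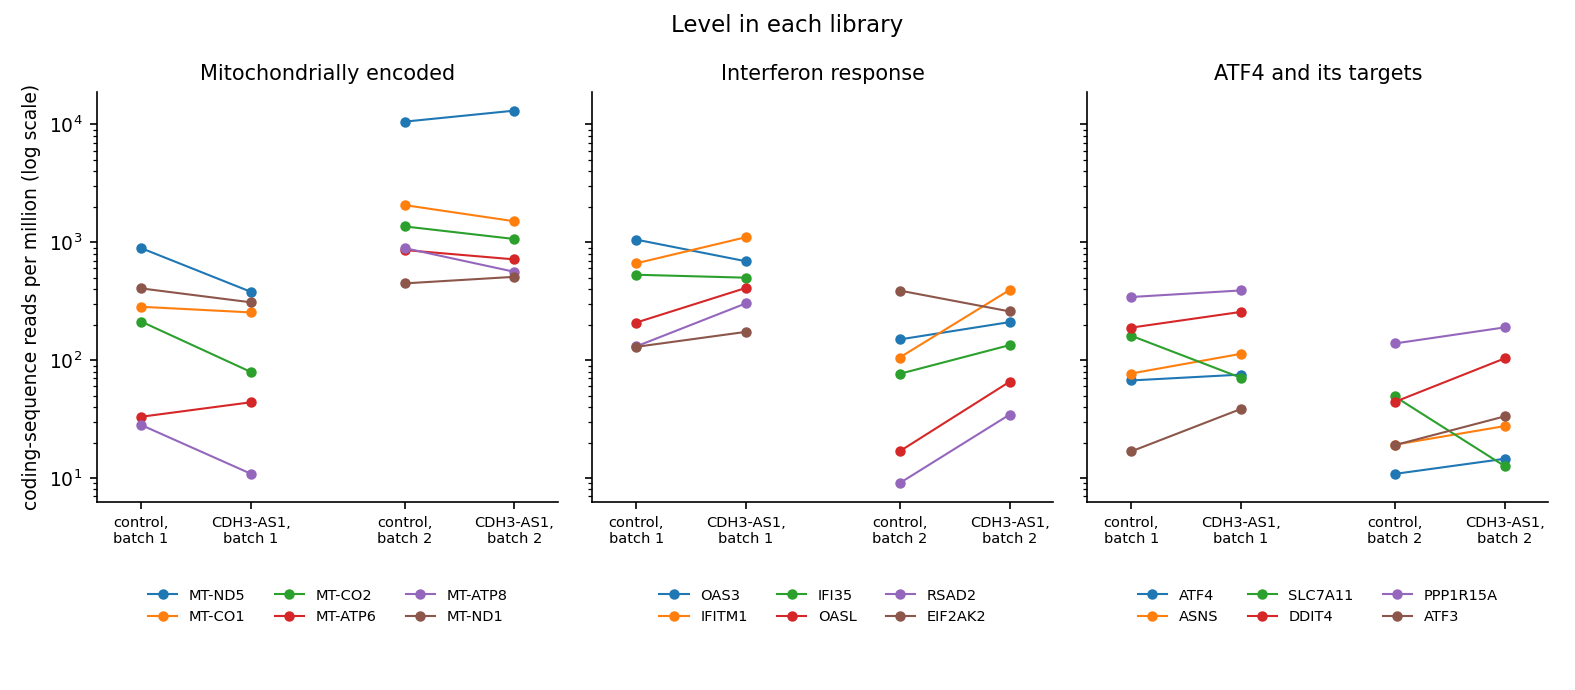
CPM (log axis) of 6 genes each from the mitochondrial genome, the interferon response and the ATF4 list in the 4 libraries; points are libraries and lines join the libraries of a batch. MT-ND5 rises from 893 and 380 CPM in batch 1 to 10564 and 13102 CPM in batch 2, and RSAD2 falls from 131 and 304 CPM to 9.06 and 34.5 CPM. Also shown are MT-ND1, which was higher but not called, EIF2AK2, which was called in the opposite direction to its group, and ATF3, which was not called.

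Interferon-stimulated genes were lower in batch 2. Interferons bind receptors that activate transcription factors, STAT2 and IRF9 among them, which switch on many genes that block viruses. Of 45 genes of this response tested, 34 were called lower and 1 higher, against 6.18% and 9.51% of all genes. In 39 both siRNAs were lower, against 3571 of 10469 over all genes, and the median difference was -1.04. In 36 of 45 both libraries of batch 2 lay below both of batch 1, against 27% of all genes.

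RSAD2, the antiviral protein viperin (chr2:6865885-6898239, GRCh38), was at 131 and 304 CPM in batch 1 against 9.06 and 34.5 CPM in batch 2. The lowest level in batch 1 was well above the highest in batch 2, and the difference was -3.40, SE 0.30, adjusted p = 2.37e-27. OASL, a relative of the oligoadenylate synthetases, was at 208 and 410.3 CPM in batch 1 against 16.9 and 65.5 CPM in batch 2, a difference of -3.06, SE 0.28, adjusted p = 3.74e-25. The synthetase OAS3, which makes the second messenger that activates RNase L, was at 1055 and 691 CPM in batch 1 against 149.96 and 210.4 CPM in batch 2 and fell by 2.24 on the log2 scale, SE 0.24. In all 3 the groups did not overlap. IFI35 (-2.31), the membrane proteins IFITM1 and IFITM3 (-2.03 and -1.69), the RNA sensor DHX58 (-2.17), the ubiquitin-like modifier ISG15 (-1.67) and its protease USP18 (-1.72) fell as well. IFITM1 was at -1.13 (adjusted p = 0.367) without the control library of batch 2 and at -3.06 without the CDH3-AS1 library of that batch.

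Signalling members of the pathway were lower too. STAT2 was at 750.1 and 726 CPM in batch 1 against 314 and 351 CPM in batch 2 (-1.12, SE 0.23, adjusted p = 3.77e-05). The transcription factor IRF1 was at 39.6 and 68.4 CPM in batch 1 against 11.4 and 13 CPM in batch 2 (-2.03, SE 0.35, adjusted p = 3.43e-07). The sensor RIGI, which recognises viral RNA ends, differed by -1.10. EIF2AK2, the RNA-activated kinase PKR, went the other way. It was at 129.7 and 174 CPM in batch 1 against 389.6 and 259 CPM in batch 2 and was higher in batch 2, by 1.10, SE 0.25, adjusted p = 0.000299.

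The summed level of the 50 listed genes in the files was 31924 and 42843 CPM in batch 1 and 14693 and 26707 CPM in batch 2, so that the libraries of both siRNAs were lower in batch 2 than either library of batch 1. Without the control library of batch 2, none of the 34 calls remained in edgeR's test, although 21 kept their direction at an unadjusted p under 0.05; leaving out the other libraries kept 12 to 18, and DESeq2 called 27 genes of the list lower.

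Genes that present antigens on MHC class I, which interferons also raise, were lower in part. Of 6 tested, 3 were called lower, NLRC5, the activator of these genes, HLA-B and HLA-C, against 6.18% of all genes. In 2 of the 6 both libraries of batch 2 lay below both of batch 1, against 27% of all genes. NLRC5 was at 83 and 72.3 CPM in batch 1 against 14.9 and 24.5 CPM in batch 2 (-1.96, SE 0.32, adjusted p = 4.62e-08). HLA-B was at 219 and 661 CPM in batch 1 against 86 and 239 CPM in batch 2, and here the libraries overlapped, since the CDH3-AS1 library of batch 2 stood above the control of batch 1 (-1.38, SE 0.24, adjusted p = 1.06e-06). Its difference was -0.38 (adjusted p = 0.575) without the CDH3-AS1 library of batch 1, -0.85 without the control library of batch 2 and -2.36 without the CDH3-AS1 library of batch 2. HLA genes are near-identical and their reads can have been split. BATF2 (-2.86), an interferon-induced transcription factor outside the list, and the tryptophanyl-tRNA synthetase WARS1 were among the genes that fell. WARS1 was at 3180 and 4112 CPM in batch 1 against 957 and 1521 CPM in batch 2, a difference of -1.56, SE 0.20, adjusted p = 2.90e-12.

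Promoters of the interferon genes called lower were searched for the interferon-stimulated response element, the site of factors such as STAT2 and IRF9. The motif was spelled GAAA, any 2 bases, GAAA, and was sought on both strands in the 250 bases before each RefSeq start (GRCh38.p14). It was in 13 of 25 promoters found for the 34 genes (52%), in 19 of 35 for all interferon genes tested (54.3%), and in 3.07% of 27305 promoters. So the share was alike in called and in all tested members of the list. Among all genes called lower it was in 34 of 511 promoters (6.65%), which include the 13 above, and among all called higher in 17 of 796 (2.14%). Over promoters of all tested genes the share was 2.29%. A match is a description of the letters and shows no binding. Windows of 30 bases from 5 of these promoters follow, 5′ to 3′ on the gene's strand, with the match in capitals (on GBP1 and IFIT3 it lies on the other strand), to show the element that these genes share.
OAS3, chr12:112938444-112938473, + strand: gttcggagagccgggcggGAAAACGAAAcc
IFITM1, chr11:313990-314019, + strand: caaacagcagGAAATAGAAActtaagagaa
ISG15, chr1:1013380-1013409, + strand: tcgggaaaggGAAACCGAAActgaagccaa
GBP1, chr1:89065316-89065345, - strand: aacgaagtacTTTCAGTTTCatattactct
IFIT3, chr10:89327865-89327894, + strand: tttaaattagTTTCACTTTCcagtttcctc
The matches began 12 bases before the start in OAS3, 40 in IFITM1, 107 in ISG15, 127 in GBP1 and 122 in IFIT3.

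The transcription factor ATF4 and its targets were lower in batch 2. ATF4 is made when the initiation factor eIF2 is phosphorylated under stress: upstream reading frames in its 5′ UTR then no longer hold ribosomes back from the coding sequence, and it switches on amino acid synthesis and transport. Of 32 genes of the list tested, 13 were called lower and 1 higher, against 6.18% and 9.51% of all genes, and the median difference was -0.60. The letters TGATGCAA, a CCAAT-enhancer ATF element, were sought in promoters by the search described above. They were in 0 of 25 promoters found for the tested genes of the list and in 0 of 11 for those called lower. The share was 0.82% of all promoters and 0.34% of promoters of tested genes. With shares that low, 0 of 25 says little either way. ATF4 itself (chr22:39520559-39522686, GRCh38) was at 67.3 and 75.5 CPM in batch 1 against 10.8 and 14.6 CPM in batch 2. Both libraries of batch 2 stood far below both of batch 1, with a difference of -2.43, SE 0.33, adjusted p = 4.79e-11.

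Among its targets, the asparagine synthetase ASNS was at 77.1 and 113 CPM in batch 1 against 19.2 and 27.6 CPM in batch 2 (-1.97, SE 0.30, adjusted p = 8.54e-09). The cystine transporter SLC7A11 was at 161 and 70.9 CPM in batch 1 against 49.2 and 12.6 CPM in batch 2 (-2.00, SE 0.30, adjusted p = 2.88e-09). DDIT4, an inhibitor of mTORC1 signalling, was at 189 and 257 CPM in batch 1 against 44.2 and 103 CPM in batch 2 (-1.66, SE 0.27, adjusted p = 3.50e-08). None of these 3 overlapped between batches. SLC7A11 was at -1.17 without the control library of batch 1, at -3.07 and -1.20 without the control and the CDH3-AS1 library of batch 2, and lost its call each time, and DDIT4 was at -1.06 (adjusted p = 0.348) without the control library of batch 2. The pseudokinase TRIB3 (-2.46), the stress factor DDIT3 (-1.45), the phosphatase subunit PPP1R15A (-1.15) and the serine synthesis enzyme PHGDH (-1.04) fell too. ATF3, another stress factor of the list, was at 16.8 and 38.6 CPM in batch 1 against 19 and 33.3 CPM in batch 2 and did not pass the test (-0.01, SE 0.37, adjusted p = 0.99), and the lipoprotein receptor VLDLR was called higher (1.10). Without the control library of batch 2, none of the 13 calls remained in edgeR's test and 8 had an unadjusted p under 0.05; without each other library 2 to 7 remained, and DESeq2 called 10 of the list lower.

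The 5′ UTR of ATF4 held a larger share of its reads in batch 2. Of reads in its 5′ UTR and coding sequence together, the 5′ UTR took 27.1% (95% Clopper-Pearson interval 20.5 to 34.4) and 26.3% (23.0 to 29.9) in batch 1. In batch 2 it took 47.0% (37.6 to 56.5) and 53.1% (41.7 to 64.3), from 54 and 43 reads against 61 and 38 in the coding sequence. The intervals of batch 1 did not meet those of batch 2. Scaled in the same way as CPM, the 5′ UTR of ATF4 stood at 25.0 and 26.9 in batch 1 and at 9.59 and 16.5 in batch 2, so both regions were lower and the coding sequence more so. DDIT3, which also has an upstream reading frame, went from 2.11% and 2.33% to 9.52% and 18.2%, where the interval of the batch 2 control, from 4.66 to 16.8%, met those of batch 1. PPP1R15A, at 48.7% and 41.5% in batch 1 and 39.9% and 49.4% in batch 2, and ATF5, at 68.7% and 45.1% in batch 1 and 53.4% and 59.5% in batch 2, overlapped between batches, as did ATF3, at 22.5% and 4.3% in batch 1 and 21.9% and 35.6% in batch 2. The tRNA synthetase EPRS1 went the other way, from 1.95% and 1.70% in batch 1 to 0.256% and 0.193% in batch 2, where some intervals met. These 6 genes were chosen with earlier results known, and no test was run on the shares.

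**Figure D4:**
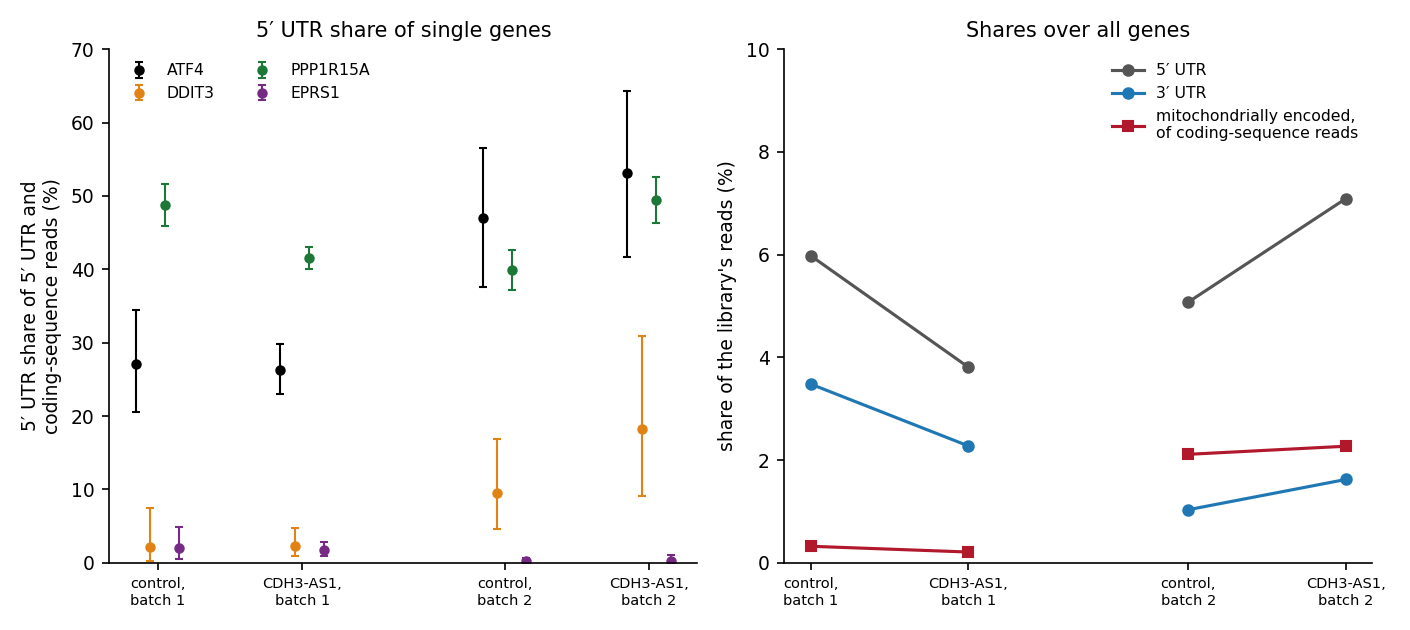
Left, share of 5′ UTR reads among 5′ UTR and coding-sequence reads (%) of 4 genes in each library, with 95% Clopper-Pearson intervals as bars; right, share of 5′ UTR and 3′ UTR reads among all reads and of mitochondrially encoded genes among coding-sequence reads (%), 1 point per library. ATF4 is near 27% in both libraries of batch 1 and at 47.0% and 53.1% in batch 2, while the 5′ UTR share over all genes overlaps between batches.

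Some pigment genes were higher in batch 2. Melanocytes make melanin in melanosomes, with tyrosinase and its relatives as enzymes and PMEL as the fibres on which the pigment is laid down; the factor MITF drives these genes. Of 30 pigmentation genes tested, 10 were called higher, against 9.51% of all genes, and the median difference was 0.53. None was called lower by edgeR or by DESeq2, and none had an unadjusted p under 0.05 in that direction. TYRP1, the tyrosinase-related protein (chr9:12693385-12710285, GRCh38), was at 8306 and 9143 CPM in batch 1 against 17637 and 14648 CPM in batch 2 (0.91, SE 0.17, adjusted p = 3.41e-06). PMEL was at 7729 and 6709 CPM in batch 1 against 14850 and 11874 CPM in batch 2 (0.91, SE 0.17, adjusted p = 5.67e-06). For both, the lower library of batch 2 was above the higher library of batch 1.

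Other called members were the melanosome receptor GPR143 (1.12), the transport GTPase RAB27A (1.32), the exchanger SLC24A5 (0.88) and the channel TRPM1, with 0 and 3 reads in batch 1 and 155 and 12 reads in batch 2. TRPM1 passed the filter on low counts through batch 2 alone, so its call was largely fixed in advance. Tyrosinase itself (TYR) was at 2043 and 1574 CPM in batch 1 against 2718 and 1288 CPM in batch 2 and did not pass (0.09, SE 0.20, adjusted p = 0.828), nor did MLANA, at 2187 and 1215 CPM in batch 1 against 2243 and 1438 CPM in batch 2 (0.17, SE 0.20, adjusted p = 0.643). Without each library in turn, 0 to 2 of the 10 remained; the 0 came without the control library of batch 2, where 5 of the 10 had an unadjusted p under 0.05, and DESeq2 called 8.

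The letters TCATGTG, the core of the E-box that MITF binds, were sought by the same search as above. They were in 4 of 9 promoters found for the called pigment genes (44.4%) and in 6 of 23 for all pigment genes tested (26.1%). The share was 2.58% of all promoters and 1.29% of promoters of tested genes. Among all genes called higher it was 13 of 796 promoters (1.63%) and among all called lower 9 of 511 (1.76%), so it was alike in both directions. Windows from 3 of the called pigment genes show the element, in capitals, which reads CACATGA on the other strand.
TYRP1, chr9:12693229-12693258, + strand: ttggaagggaaTCATGTGctgatcaagtcc
GPR143, chrX:9765862-9765891, - strand: agcccgcccagCACATGAcccaggcaggcc
SLC24A5, chr15:48120960-48120989, + strand: aggaaggagactcctCACATGAtccagttt

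Factors and receptors of the melanocyte lineage split, with 4 of 15 called higher and 6 lower, against 9.51% and 6.18% of all genes. MITF was at 606 and 580.5 CPM in batch 1 against 1225 and 864 CPM in batch 2 and rose (0.82, SE 0.22, adjusted p = 0.00299), and so did the stem cell factor receptor KIT, at 150.3 and 72.3 CPM in batch 1 against 403 and 159 CPM in batch 2 (1.30, SE 0.26, adjusted p = 1.41e-05), although the CDH3-AS1 library of batch 2 was only just above the control of batch 1; without the control library of batch 2 its difference was 0.58 (adjusted p = 0.695). MET, the receptor of hepatocyte growth factor, was at 316 and 319 CPM in batch 1 against 869 and 544 CPM in batch 2 (1.14, SE 0.23, adjusted p = 3.48e-05). SOX10 and PAX3, which act before MITF in the neural crest, fell: SOX10 was at 2198 and 2207 CPM in batch 1 against 1052 and 1376 CPM in batch 2 (-0.85, SE 0.21, adjusted p = 0.000785) and PAX3 at 194 and 249 CPM in batch 1 against 103 and 119.6 CPM in batch 2 (-0.95, SE 0.26, adjusted p = 0.00305). The receptors EDNRB (-0.71) and MC1R (-1.33) were also called lower.

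NGFR, the neurotrophin receptor that marks neural crest cells and less differentiated melanocytes (chr17:49495293-49515008, GRCh38), was at 785 and 1661 CPM in batch 1 against 175 and 408 CPM in batch 2. Both libraries of batch 2 were below both of batch 1, with a difference of -2.06, SE 0.23, adjusted p = 1.09e-16, which was -1.37 without the CDH3-AS1 library of batch 1. Of 12 Schwann cell and neural crest genes, 7 were called lower and 1 higher, against 6.18% and 9.51% of all genes, with a median difference of -0.69. The myelin gene CNP, at 739.8 and 563 CPM in batch 1 against 249 and 229 CPM in batch 2 (-1.41, SE 0.24, adjusted p = 1.63e-07), and the neuregulin receptor ERBB3, at 172 and 251 CPM in batch 1 against 84.9 and 109.6 CPM in batch 2 (-1.08, SE 0.26, adjusted p = 0.000649), fell with it. The adhesion protein L1CAM was the 1 called higher (0.69). NGFR and ERBB3 are also in the melanocyte lineage list above, so their lower calls were counted in both lists. Without each library in turn 0 to 3 of the 7 calls remained; the 0 came without the control library of batch 2, where 5 had an unadjusted p under 0.05.

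Genes of mitosis were higher in batch 2 in part. Of 54 mitosis genes, 21 were called higher and 2 lower, against 9.51% and 6.18% of all genes, and the median difference was 0.52. KIF20B, a kinesin of late mitosis, was at 18.5 and 49 CPM in batch 1 against 169 and 138 CPM in batch 2 (2.24, SE 0.29, adjusted p = 4.19e-12). CENPE, the kinesin that carries chromosomes to the spindle equator, was at 41.8 and 47.7 CPM in batch 1 against 198 and 171 CPM in batch 2 (2.04, SE 0.28, adjusted p = 3.16e-11). CENPF, a kinetochore protein, was at 217 and 233 CPM in batch 1 against 715 and 635 CPM in batch 2 (1.61, SE 0.24, adjusted p = 1.41e-09), and SMC4, the core of condensin, was at 90.1 and 173 CPM in batch 1 against 393 and 409.6 CPM in batch 2 (1.69, SE 0.25, adjusted p = 2.12e-09). None of these 4 overlapped between batches. The regulators of mitotic entry and exit CDC20 (-0.65), PLK1 (-0.39) and CCNB1 (0.28) and the factor FOXM1 (-0.01) did not pass. The survivin gene BIRC5 and the separase gene ESPL1 were called lower (-0.84 and -1.21). Of 44 DNA replication genes 2 were called higher, DUT (0.82) and RFC1 (0.78), and none lower; at an unadjusted p under 0.05 there were 4 higher and 2 lower, DESeq2 called none, and the median was 0.04. Without the control library of batch 2 none of the 21 mitosis calls remained in edgeR's test, though 18 had an unadjusted p under 0.05; without each other library 2 to 16 remained, and DESeq2 called 13.

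Coiled-coil tethers were called higher as well, in a list made after their values were seen and so given only as a description. Golgins are long coiled coils that catch vesicles at the Golgi apparatus. Of 17 golgins and other tethers tested, 11 were called higher, against 9.51% of all genes, and the median difference was 1.25. The choice of members favoured such calls. EEA1, which tethers early endosomes, was at 59.2 and 94 CPM in batch 1 against 574 and 339 CPM in batch 2 (2.55, SE 0.26, adjusted p = 1.85e-19). KTN1, the kinesin anchor of the endoplasmic reticulum, was at 51 and 99.4 CPM in batch 1 against 406 and 315 CPM in batch 2, and the golgins GOLGA4 and GCC2 at 63.5 and 90.9 CPM in batch 1 against 296 and 273 CPM in batch 2 and at 25.5 and 61.7 CPM in batch 1 against 191 and 161 CPM in batch 2. In all 4 the batches did not overlap. GOLGA2 was at 60.2 and 61.3 CPM in batch 1 against 81.4 and 80.5 CPM in batch 2 and did not pass the test. Coding length and the difference had a Spearman rho of -0.02 across the 10469 genes, and the median coding length was 1212 bases for genes called higher, 1242 for those called lower and 1365 for all tested. The median 3′ UTR was 1289, 837 and 1148 bases in the same order.

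Integrins, the receptors by which cells hold on to the matrix, were higher in part. Of 12 tested 6 were called higher, against 9.51% of all genes, and none lower by edgeR or DESeq2 or at an unadjusted p under 0.05; the median difference was 0.67. ITGB1, the beta chain shared by most of them, was at 363 and 564 CPM in batch 1 against 1374 and 1007 CPM in batch 2 (1.40, SE 0.23, adjusted p = 4.61e-08). ITGAV, the alpha chain of vitronectin receptors, was at 66.8 and 81.1 CPM in batch 1 against 234 and 176 CPM in batch 2 (1.47, SE 0.27, adjusted p = 1.77e-06), and the laminin receptor chain ITGA7 was at 6.51 and 2.84 CPM in batch 1 against 20.6 and 22.2 CPM in batch 2 (2.25, SE 0.46, adjusted p = 3.30e-05). The batches did not overlap in any of these 3. ITGB3 was at 125 and 103 CPM in batch 1 against 128 and 85.1 CPM in batch 2 and did not pass. Matrix genes divided, with 5 of 28 called higher and 5 lower: fibronectin (FN1) was at 1722 and 4407 CPM in batch 1 against 4324 and 6550 CPM in batch 2, with overlap between batches (0.98, SE 0.19, adjusted p = 1.16e-05; 0.29, adjusted p = 0.755, without the control library of batch 1, 1.71 without the CDH3-AS1 library of that batch and 0.50 without the CDH3-AS1 library of batch 2), and the lysyl oxidase LOXL3 at 17.9 and 43.2 CPM in batch 1 against 3.02 and 6.90 CPM in batch 2 (-2.46, SE 0.42, adjusted p = 3.04e-07). Without the control or without the CDH3-AS1 library of batch 2 none of the 6 integrin calls remained in edgeR's test, and 4 had an unadjusted p under 0.05 in each case.

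Chaperones of the endoplasmic reticulum rose in part. Of 26 genes of this group 6 were called higher, against 9.51% of all genes, with a median difference of 0.31. HSP90B1, the reticulum's HSP90, was at 609 and 948 CPM in batch 1 against 2058 and 2262 CPM in batch 2 (1.53, SE 0.21, adjusted p = 9.01e-11), and the disulfide isomerase PDIA3 was at 236 and 222 CPM in batch 1 against 454 and 572 CPM in batch 2 (1.18, SE 0.24, adjusted p = 2.74e-05). HSPA5, or BiP, the marker of the unfolded protein response, was at 565 and 602 CPM in batch 1 against 598 and 871 CPM in batch 2 and did not pass (0.34, SE 0.22, adjusted p = 0.337).

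Of genes that oxidants induce through NRF2, 7 of 21 were called lower and 1 higher, against 6.18% and 9.51% of all genes, with a median difference of -0.22. Haem oxygenase HMOX1 was at 373 and 239 CPM in batch 1 against 87.4 and 99.6 CPM in batch 2 (-1.65, SE 0.26, adjusted p = 1.61e-08) and the quinone reductase NQO1 at 2286 and 1511 CPM in batch 1 against 1158 and 828 CPM in batch 2 (-0.90, SE 0.21, adjusted p = 0.000407). The 2 batches did not overlap in either. SLC7A11, named above among the ATF4 targets, is in this list too, and TXNRD1 was at 481 and 364 CPM in batch 1 against 453 and 321 CPM in batch 2 and did not pass. TXNIP, which inhibits thioredoxin and responds to glucose, was at 328 and 422 CPM in batch 1 against 33.2 and 88.1 CPM in batch 2 and fell (-2.73, SE 0.27, adjusted p = 1.40e-21).

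Most immediate early and MAPK feedback genes, which growth factors induce rapidly, were not called. In the AP-1 list 7 of 28 were called lower and 2 higher, with a median of -0.03, and both siRNAs were higher in 8 genes and lower in 10. Over all 10469 genes both siRNAs were higher in 3775 and lower in 3571. In the MAPK feedback list 5 of 17 were called lower and none higher (none at an unadjusted p under 0.05, none by DESeq2), with a median of -0.16; over all genes 6.18% were called lower and 9.51% higher. FOSL1, a subunit of AP-1, was at 734 and 663 CPM in batch 1 against 206 and 369.8 CPM in batch 2 (-1.31, SE 0.24, adjusted p = 1.60e-06; -0.87, adjusted p = 0.413, without the control library of batch 2), and the EGF receptor inhibitor ERRFI1 was at 40.7 and 69.9 CPM in batch 1 against 13.7 and 13 CPM in batch 2 (-1.93, SE 0.34, adjusted p = 1.15e-06). The NF-kB inhibitor NFKBIA (-1.63) and the signalling adaptor TRAF1, at 47.2 and 78.6 CPM in batch 1 against 6.75 and 6.13 CPM in batch 2 (-3.09, SE 0.37, adjusted p = 8.81e-15), both NF-kB targets, fell too. Among genes that respond to cAMP, 5 of 18 were called higher and none lower (none at an unadjusted p under 0.05, none by DESeq2), with a median of 0.35. The nuclear receptor NR4A3 was at 146 and 123 CPM in batch 1 against 313 and 300.03 CPM in batch 2 (1.22, SE 0.25, adjusted p = 4.24e-05), and CREM, a repressor of cAMP response genes, at 15.2 and 18.1 CPM in batch 1 against 73.9 and 34.5 CPM in batch 2 (1.56, SE 0.34, adjusted p = 0.00012).

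Cytosolic ribosomal proteins were called in both directions. In the large subunit 6 of 39 were called higher and 6 lower (median -0.10), and in the small subunit 2 of 24 higher and 4 lower (median -0.29), against 9.51% and 6.18% of all genes; the small subunit's share of higher calls is near the background. RPL13A was at 645 and 436 CPM in batch 1 against 121 and 139 CPM in batch 2 (-2.00, SE 0.25, adjusted p = 2.07e-13), while RPL24 was at 32.6 and 31.8 CPM in batch 1 against 123 and 118 CPM in batch 2 (1.92, SE 0.29, adjusted p = 5.28e-09) and RPL5 at 77.1 and 65.7 CPM in batch 1 against 272 and 198 CPM in batch 2 (1.73, SE 0.26, adjusted p = 6.83e-09). Ribosomal protein genes have many processed copies, so their reads can have been split and these values are uncertain. Of 33 translation factors 6 were called higher and 2 lower, against the same background, among them EIF5B, which joins the ribosomal subunits, at 71.6 and 134 CPM in batch 1 against 405 and 307 CPM in batch 2 (1.84, SE 0.26, adjusted p = 1.90e-10), and EIF3J, at 19.5 and 28.7 CPM in batch 1 against 98.1 and 104 CPM in batch 2 (2.07, SE 0.30, adjusted p = 1.30e-09).

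Several other genes were among those with the smallest p-values. ARL6IP1, which shapes the endoplasmic reticulum (chr16:18791667-18801549, GRCh38), was at 4.34 and 12.1 CPM in batch 1 against 170.04 and 142 CPM in batch 2 (4.09, SE 0.33, adjusted p = 7.85e-32). GNG12, a G protein gamma subunit, was at 32 and 41.7 CPM in batch 1 against 538 and 266 CPM in batch 2 (3.33, SE 0.28, adjusted p = 9.47e-30), and CBX3, a heterochromatin protein, at 34.2 and 46.3 CPM in batch 1 against 326 and 238 CPM in batch 2 (2.78, SE 0.28, adjusted p = 8.91e-21). These 3 were higher in batch 2 without overlap. In the other direction, LGALS9, a galectin, had 55 and 270 reads in batch 1 and 0 and 7 reads in batch 2. S100A11, a calcium-binding protein, was at 3067 and 2155 CPM in batch 1 against 578 and 839 CPM in batch 2 (-1.86, SE 0.21, adjusted p = 1.69e-15), and SERPINB2, a plasminogen activator inhibitor, at 28.8 and 185 CPM in batch 1 against 7.11 and 13 CPM in batch 2 (-2.90, SE 0.34, adjusted p = 4.47e-15), which was -1.46 without the CDH3-AS1 library of batch 1. Of the 178 genes named by the rule, 19 kept their call with every library left out in turn. They include mitochondrially encoded genes, ARL6IP1, GNG12, CBX3, EEA1, NDUFB3 and the histone H2AC14 among the higher, and SFTPC, LGALS9 and TRAF1 among the lower. SFTPC and LGALS9 passed the filter on low counts through batch 1 alone, so for them this outcome was largely fixed in advance.

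CDH3 (chr16:68645310-68733771, GRCh38), the gene the series is about, was not called. It was at 293 and 179 CPM in batch 1 against 322 and 192 CPM in batch 2, and the batch difference was 0.15, SE 0.24, adjusted p = 0.752, with values from -0.24 to 0.50 when each library was left out in turn. The ranges of the 2 batches overlapped, with the CDH3-AS1 library below the control library in each.

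**Figure D5:**
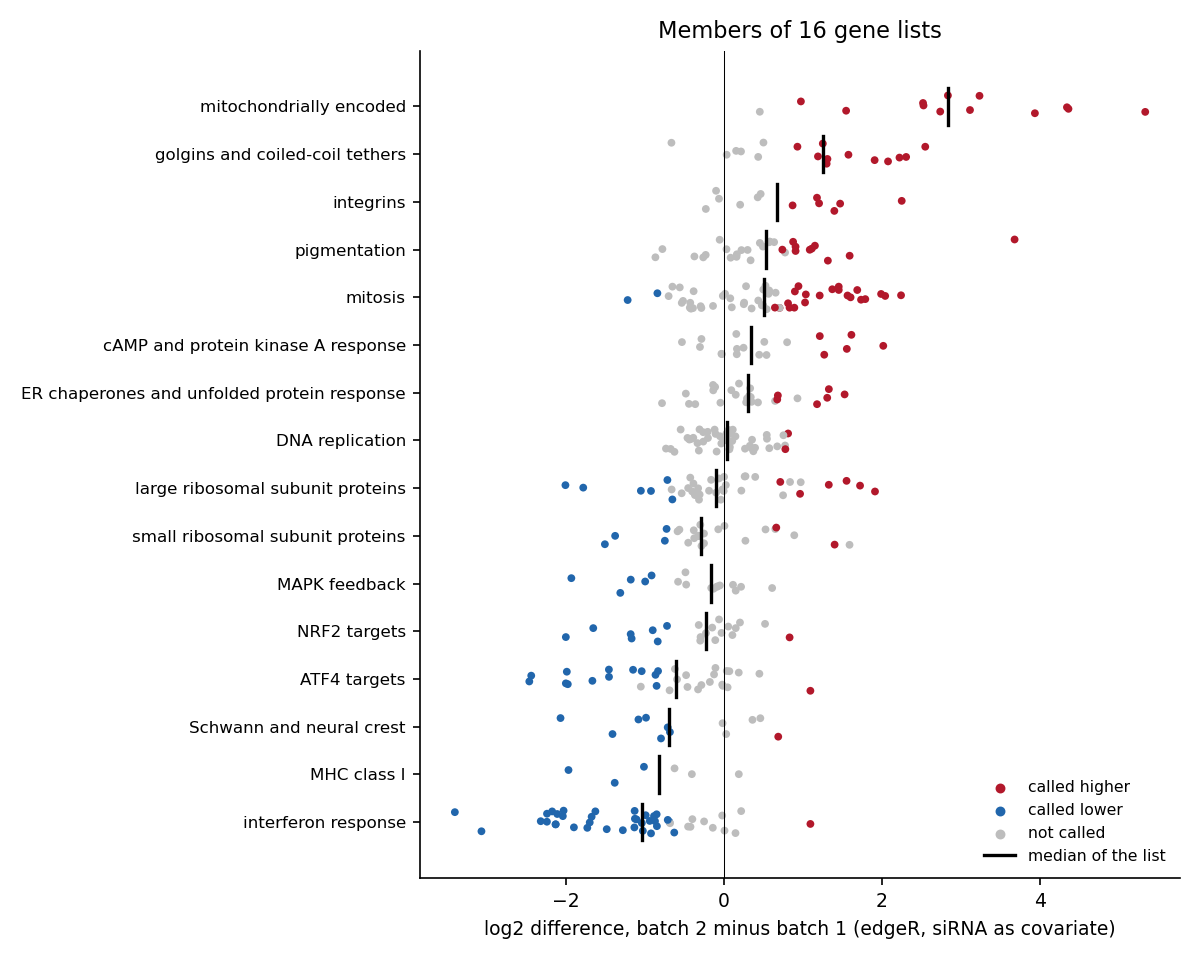
Log2 difference of batch 2 minus batch 1 (edgeR, siRNA as covariate) for the tested members of 16 gene lists; each point is a gene, red and blue where it was called higher or lower, grey where not, and the black bar is the list's median. The mitochondrially encoded genes lie almost wholly to the right (median 2.84) and the interferon genes to the left (median -1.04), while the ribosomal protein lists spread to both sides.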

How the data were processed

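Ribosome profiling reads of 4 libraries were used. The authors' deposited tables give whole-number counts per transcript for the 5′ UTR, coding sequence and 3′ UTR, with RPKM beside them, per the file headers. The submitters' processing notes name hg38 and DESeq2; aligner and annotation: not given in the sources used here. Coding-sequence counts were summed per gene name. edgeR 4.0.16 (R 4.3.3) was run with TMM scaling, filterByExpr at a minimum count of 10, and siRNA as covariate; SE is from the fit. Within-siRNA log2 differences were computed from the deposited counts with a prior count of 2. Leave-one-out fits drop the siRNA term. DESeq2 1.42.0 and limma 3.58.1 (on log2 of deposited RPKM plus 1 or 0.1) were alternatives. Reads matching several transcripts or gene copies may be divided among them or counted repeatedly.

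Genes are named by this rule: called, at least 0.5 (log2) in the same direction within each siRNA and 30 reads in the deepest library, the 15 per direction with the smallest p; then up to 4 called genes for each list with at least 3 called; then CDH3 and the 5 highest muscle genes. Other named genes were chosen after their values were seen. Some genes under the rule are not reported here. The members and the 54 lists were chosen with earlier results of these data known, and 3 lists were added after the values were seen. Of the genes tested, 10197 matched RefSeq (GRCh38.p14), the source of promoters and coordinates. On simulated counts for this comparison (10299 genes), the fit recovered 6, 28, 81.2 and 76% of genes changed 1.5-, 2-, 3- and 4-fold, with 7 false among 101 calls. The counts were drawn with the fit's own spread, and far fewer genes were changed than were called in the data. The shares recovered and the false calls therefore need not hold for the data.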

Additional observations from a re-analysis of the deposited data

Results flagged for a closer look

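Some differences between batches ran in opposite directions within the 2 siRNAs. Each rests on 1 library against 1 within an siRNA, so whether the batch difference itself differs between siRNAs was not tested, and all values below are the log2 difference within the CDH3-AS1 siRNA minus that within the control siRNA. For some of the list medians these were 1.24 for replication-dependent histones, 0.68 for basement membrane and matrix, 0.65 for large ribosomal subunit proteins and 0.53 for selenoproteins. They were 0.48 for fatty acid synthesis, 0.28 for DNA replication and -0.46 for YAP and TGF-beta targets. Other lists also had medians of opposite sign and are not given here. Among them were small ribosomal subunit proteins, matrix proteases and inhibitors, and contractile actin and focal adhesion.

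The 5 genes that passed the threshold but moved in opposite directions within the siRNAs were left out of the genes kept. H3C10 and H3C3, both histone H3 genes, differed by 1.68 and 1.51. The splicing protein HNRNPC differed by 2.02, from 441 and 108 CPM in batch 1 to 131 and 128 CPM in batch 2. RPL32, a ribosomal protein, differed by -2.67, from 38.0 and 157 CPM to 200 and 127 CPM, and the zinc finger gene ZNF664 by 2.74, from 92.3 and 8.19 CPM to 18.8 and 11.5 CPM. In these last 3 genes the control library of batch 1 stood apart from the other 3 libraries. Histone, HNRNPC and ribosomal protein genes have near-identical copies, so their counts are uncertain.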

How the results depend on the processing

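The threshold was passed by 997 genes higher and 660 lower in batch 2, 1643 of them kept. DESeq2 called 439 higher and 255 lower, 692 of them in the same direction within both siRNAs, and edgeR without the siRNA covariate called 373 and 165, with 531 in the same direction. Leaving out each library in turn gave 26 to 781 higher, 3 to 499 lower and 29 to 1143 in the same direction, with the lowest counts without the control library of batch 2. These fits have 3 libraries and no siRNA term. Their spread comes from the 2 libraries of the batch kept whole, which differ in siRNA, and the lone library of the other batch is assumed to vary likewise. Scaling by RLE or upper quartile, a minimum of 50 reads, no filter, the highest transcript, reads of all 3 regions, thinned counts, limma on RPKM, and leaving out muscle, mitochondrially encoded or batch 1 control genes each gave counts within 1.5 times those above. Of the 177 named genes that were called, 135 kept their call by DESeq2, 106 without the covariate and 20 without the control library of batch 2. The direction of SERPINE2 reversed without the control library of batch 1, to -0.0098 (adjusted p = 0.993, edgeR; -0.0098 to 1.26 over the 4 libraries left out), and the cause was not tested. No paired analysis was possible because the replicate number is the batch compared; the siRNA, which each batch holds once, is the covariate. In simulated counts the fit recovered 6% of 1.5-fold and 28% of 2-fold changes. Far fewer genes were changed there than were called in the data, which makes the adjusted threshold stricter, so these shares may be too low for the data. A gene that was not called may still differ by that much.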

Other observations

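Other gene groups are given beside the 9.51% of all genes called higher and the 6.18% called lower. Of 24 genes of cholesterol synthesis and uptake 1 was called lower, with a median log2 difference of 0.09. Of 18 glycolysis genes 1 was called higher and 3 lower, with a median of -0.24. Within both siRNAs 10 of the 18 were lower, against 3571 of 10469 over all genes. Lysosome and V-ATPase genes had 5 of 36 called higher and 1 lower, with a median of 0.31, and proteasome genes 4 of 29 higher and 3 lower, with a median of -0.13. Splicing proteins of the HNRNP and SR families had 4 of 30 called higher and 2 lower.

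Targets of p53 had 3 of 23 called lower and 1 higher, with a median of -0.32. The cell cycle inhibitor CDKN1A, a p53 target, differed by -0.80 (edgeR), while CDKN1B, another inhibitor, differed by 1.54. Genes of hypoxia had 3 of 16 called higher and 1 lower. SCD, the desaturase that makes oleate, was at 533 and 389 CPM in batch 1 and 1680 and 925 CPM in batch 2, with no overlap, a difference of 1.48 in edgeR's test.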
